A study of Mus musculus with 6 samples.

Results

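The 9 genes described here (*Ifit1*, *Ifit2*, *Ifit3*, *Isg15*, *Irf7*, *Oasl2*, *Bst2*, *Usp18* and *Ifitm3*) are interferon-stimulated genes, a set chosen by name from the 52390 genes in the count table. All 9 had a row of their own and passed the filter on low counts, as did 21844 genes in all. Their counts in the brains of 3 *AP1AR-DT* OE mice and 3 control mice, measured by RNA-seq, were compared. *AP1AR-DT*, which the sample labels call *AC109347.1*, is a human long noncoding RNA. The mice were wild-type male C57BL/6, injected in the medial prefrontal cortex (mPFC) with a recombinant adeno-associated virus (AAV) at 8 weeks of age. In *AP1AR-DT* OE mice the neuronal promoter of human synapsin I drove the insert, so cells other than neurons were not its target. Control mice received the AAV vector without an insert. Both groups therefore carried a viral vector. The labels name the tissue only as brain, while the paper names the mPFC in its results and the cortex in its methods. Behavioural testing in the study began 3 weeks after injection. No uninjected mouse was analysed here, so the comparison concerns the insert and not the vector itself.

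Type I interferons, the interferon alpha and beta proteins, are released when sensors such as the Toll-like receptors and cGAS meet viral nucleic acid. They bind the receptor IFNAR1/IFNAR2, the kinases JAK1 and TYK2 activate transcription factors, and these enter the nucleus with IRF9 as the complex ISGF3. ISGF3 binds the interferon-stimulated response element (ISRE) in the promoters of the target genes. In the brain, microglia, endothelial cells, astrocytes and neurons can all express such genes, and microglia do so strongly after infection.

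The promoters of 8 of the 9 genes were listed in the RefSeq table used (GRCm38.p6, from 250 bases before to 50 bases after each start site), and *Usp18* was not. The letters GAAANNGAA, the core of the ISRE, were searched on both strands, where the reverse strand reads TTCNNTTTC. They occurred in *Bst2*, *Ifit1*, *Ifit3*, *Ifitm3* and *Isg15*, 5 of the 8 genes, against 8.56% of all 32851 promoters listed. By gene, 9.76% of 27025 genes had a match, and 56 of 137 other interferon pathway genes listed (40.9%) had a match. The stretches with matches in 4 of these promoters are shown because the ISRE is the element through which ISGF3 acts on such genes. Each is given on the strand of its gene, with the matches in capitals and 20 bases either side.
*Isg15*, chr4:156200856-156200916, minus strand: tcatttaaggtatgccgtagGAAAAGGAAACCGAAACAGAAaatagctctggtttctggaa
*Bst2*, chr8:71537568-71537622, minus strand: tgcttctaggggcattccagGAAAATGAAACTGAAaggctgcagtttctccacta
*Ifit1*, chr19:34640760-34640833, plus strand: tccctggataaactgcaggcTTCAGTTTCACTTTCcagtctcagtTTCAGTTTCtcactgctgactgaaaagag
*Ifit3*, chr19:34583354-34583455, plus strand: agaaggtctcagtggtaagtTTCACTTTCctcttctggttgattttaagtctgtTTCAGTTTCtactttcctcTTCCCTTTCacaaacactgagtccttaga
The *Isg15* promoter holds 3 overlapping matches and *Bst2* holds 2 overlapping ones. *Ifit1* and *Ifit3* hold 3 matches each, of which 2 overlap in *Ifit1*. The letters TTCNNNGAA, which read the same on the reverse strand and stand for the gamma-activated site of interferon gamma signalling, occurred in *Bst2*, *Ifit2* and *Ifitm3*, against 8.3% of all promoters. In *Bst2* and *Ifitm3* this match overlaps a GAAANNGAA match. *Irf7* and *Oasl2* had neither set of letters in this window. A match describes letters only, and binding was not measured.

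Levels are given as normalized CPM, which scale each count by the total of its library and by a TMM factor, and compare mice within 1 gene. Changes are Log2FC values of *AP1AR-DT* OE over control, with P from the two-sided quasi-likelihood test of edgeR and adjusted P over all genes tested. A gene was called where P was under 0.05 and |Log2FC| above 0.32, the thresholds of the study. Counts per library totalled 42061721 to 49957663 in control and 51374941 to 54668294 in *AP1AR-DT* OE mice. A count of 0 allows up to 3 counts if each count is a separate read pair, and 3 counts equal 0.0557 to 0.0737 normalized CPM. The control mice are numbered 1 to 3, and the *AP1AR-DT* OE libraries, which could not be matched to the mouse numbers, are called A, B and C. Each library is labelled as 1 mouse, and P-values set the difference between groups against the spread between mice. In tissue RNA, fewer cells of a type and less RNA per cell cannot be told apart. Markers of cortical excitatory neurons varied widely: *Slc17a7*, the vesicular glutamate transporter of cortical neurons, was at 28.2, 3.86 and 233 CPM in control 1, 2 and 3 and at 231, 463 and 87.2 CPM in OE A, B and C. *Neurod6*, a transcription factor of the same neurons, was at 0.0803 CPM in control 2, from 4 counts, and at 0.572 CPM in OE C, against 4.30 to 23 CPM in the others. Choroid plexus markers summed to 4059 CPM in control 3 and to 57.9 to 75.8 CPM in the other 5 libraries. The parts of these differences in the results were not tested, and values without single mice are given where they matter.

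None of the 9 interferon-stimulated genes was called, 0 had P under 0.05 in edgeR, and in 0 did the groups fail to overlap. Over all genes tested, 12.2% were called (5.10% higher and 7.15% lower in *AP1AR-DT* OE mice), 0.0275% had an adjusted P under 0.05, and 22.4% had groups that did not overlap. At these shares, 0 of 9 is near the background, and a count this small cannot set the 9 genes apart from other genes. DESeq2 also called 0 of the 9, and limma-voom called 1, *Ifit2*. The Log2FC was above 0 for 6 genes and below 0 for 3, with a median of 0.10, against -0.01 over all genes tested. The median size of the change regardless of direction was 0.25 on the log2 scale, against 0.24 over all genes. The median within-group SD of the 9 genes was 0.43 on the log2 scale, against 0.24 over all genes tested, which were not matched to the 9 for level. *Ifit3*, at 0.15, was the only 1 of the 9 below the SD of all genes. It also had the highest mean of the 9, at 16.2 CPM, so this comparison does not separate spread from level. Unadjusted P ranged from 0.153 to 0.887 and adjusted P from 0.465 to 0.956.

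**Figure D1:**
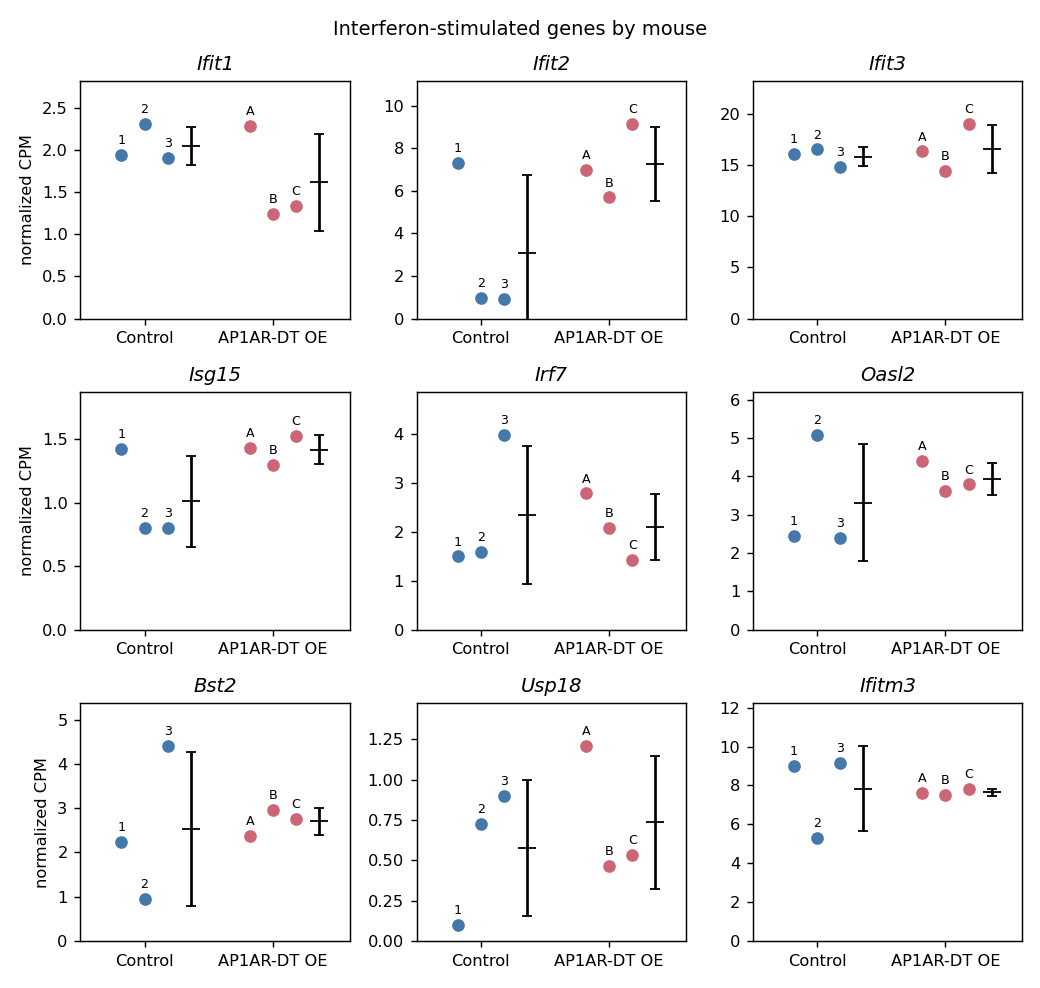
Normalized CPM (vertical axes, starting at 0) of the 9 interferon-stimulated genes in each control mouse (blue, 1 to 3) and *AP1AR-DT* OE mouse (red, A to C). Black marks are the group mean and SD (n = 3), cut off at 0 for *Ifit2*; the groups overlap for every gene shown, and *Ifit2* is near 1 CPM in control 2 and 3 and between 5.70 and 9.15 CPM in the other 4 mice.

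The IFIT proteins bind foreign RNA and block its translation. The 3 *Ifit* genes lie together on chromosome 19, on the plus strand (coordinates here are those of GENCODE on GRCm38). *Ifit1* (ENSMUSG00000034459, chr19:34640871-34650009), which recognises RNA with an unmethylated cap, was at 1.94, 2.31 and 1.90 CPM in control 1, 2 and 3 and at 2.28, 1.24 and 1.33 CPM in OE A, B and C. OE B and C lay below all control mice and OE A among them. The means were 2.05 ± 0.22 and 1.62 ± 0.58 CPM (SD, n = 3 each), with a Log2FC of -0.34 (SE 0.31, 95% confidence interval -1.08 to 0.40, edgeR adjusted P = 0.620).

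*Ifit2* (ENSMUSG00000045932, chr19:34550694-34576419), which also acts against viral RNA, was at 7.30, 0.964 and 0.941 CPM in control 1, 2 and 3, from 297, 48 and 47 counts. In OE A, B and C it was at 7.0, 5.70 and 9.15 CPM, from 371, 307 and 480 counts. Control 1 sat with the *AP1AR-DT* OE mice, while control 2 and 3 were alike and lower. The highest library was 9.72 times the lowest, and the Log2FC was 1.25 (SE 0.78, 95% confidence interval -0.60 to 3.11, edgeR adjusted P = 0.465). This value depended on single control mice. Without control 1 the Log2FC was 2.93 and the gene was called (edgeR adjusted P = 0.0795). Without control 2 or without control 3 it was 0.84, and the gene was not called. The limma-voom fit over all mice gave 2.02 and called *Ifit2* too (adjusted P = 0.274). The adjusted P of *Ifit2* lay between 0.0795 and 0.696 over all fits. No 100-base stretch of its longest transcript was shared with another gene.

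*Ifit3* (ENSMUSG00000074896, chr19:34583531-34588731) was the steadiest of the 9, at 16.1, 16.5 and 14.8 CPM in control 1, 2 and 3 and 16.3, 14.4 and 19.0 CPM in OE A, B and C. The groups overlapped throughout, with means of 15.8 ± 0.89 and 16.6 ± 2.32 CPM (SD, n = 3 each). The Log2FC was 0.07 (SE 0.14, 95% confidence interval -0.26 to 0.40, edgeR adjusted P = 0.841). Of the 100-base stretches of its transcript, 31.6% also occur in *Ifit3b*, so reads may have been divided between the 2 genes.

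ISG15 is a ubiquitin-like protein that is joined to other proteins during the interferon response. USP18 removes it again and also blocks signalling at IFNAR2. *Isg15* (ENSMUSG00000035692, chr4:156199424-156200818, minus strand) was at 1.43, 0.803 and 0.801 CPM in control 1, 2 and 3 and at 1.43, 1.3 and 1.53 CPM in OE A, B and C. As for *Ifit2*, control 1 was level with the *AP1AR-DT* OE mice and control 2 and 3 lay below them. The means were 1.01 ± 0.36 and 1.42 ± 0.11 CPM (SD, n = 3 each) and the Log2FC was 0.49 (SE 0.34, 95% confidence interval -0.31 to 1.3, edgeR adjusted P = 0.509). Without control 1 it was 0.82 (adjusted P = 0.291), past the call thresholds, and without control 2 or without control 3 it was 0.36 and not called.

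*Usp18* (ENSMUSG00000030107, chr6:121245906-121270917, plus strand) had the lowest counts, with 4, 36 and 45 counts in control 1, 2 and 3 and 64, 25 and 28 counts in OE A, B and C. The levels were 0.0983, 0.723 and 0.901 CPM in control and 1.21, 0.464 and 0.534 CPM in *AP1AR-DT* OE mice. Control 1, which was high for *Ifit2* and *Isg15*, was the lowest here by far. The Log2FC was 0.35 (SE 0.78, 95% confidence interval -1.5 to 2.19, edgeR adjusted P = 0.856), and it fell below 0 without control 1 (-0.14) or without OE A (-0.21).

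*Irf7* (ENSMUSG00000025498, chr7:141262706-141266481, minus strand) encodes the transcription factor that amplifies interferon alpha production. It was at 1.5, 1.59 and 3.98 CPM in control 1, 2 and 3 and at 2.79, 2.08 and 1.43 CPM in OE A, B and C. Control 3, the library rich in choroid plexus markers, was the highest. OE C was the lowest of all libraries, and OE A and B lay between control 2 and control 3. The Log2FC was -0.17 (SE 0.46, 95% confidence interval -1.25 to 0.91, edgeR adjusted P = 0.881), and 0.46 without control 3. Exons of *Irf7* overlap those of *Phrf1* on the opposite strand, which was at 48.2 to 54.5 CPM, and use of strand in the libraries or the counting is not given in the sources used here, so reads of the 2 genes may be mixed where they overlap.

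*Oasl2* (ENSMUSG00000029561, chr5:114896936-114912234, plus strand) belongs to the oligoadenylate synthetase family, whose members sense double-stranded RNA. It was at 2.46, 5.08 and 2.40 CPM in control 1, 2 and 3 and at 4.41, 3.62 and 3.79 CPM in OE A, B and C. All *AP1AR-DT* OE mice lay above control 1 and 3 and below control 2. The Log2FC was 0.25 (SE 0.33, 95% confidence interval -0.52 to 1.02, edgeR adjusted P = 0.741), and without control 2 it was 0.71 (adjusted P = 0.449), past the call thresholds. Without control 1 or without control 3 it was 0.08.

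*Bst2* and *Ifitm3* encode membrane proteins. BST2, or tetherin, holds budding virus particles at the cell surface, and IFITM3 blocks the fusion of viruses in endosomes. *Bst2* (ENSMUSG00000046718, chr8:71534255-71537456, minus strand) was at 2.24, 0.944 and 4.40 CPM in control 1, 2 and 3 and at 2.38, 2.97 and 2.76 CPM in OE A, B and C. The lowest value was in control 2 and the highest in control 3, the library rich in choroid plexus markers, and the Log2FC was 0.10 (SE 0.50, 95% confidence interval -1.09 to 1.28, edgeR adjusted P = 0.943). Without control 3 the Log2FC of *Bst2* was 0.78, and without control 2 it was -0.29. *Ifitm3* (ENSMUSG00000025492, chr7:141009586-141010770, minus strand) was at 9.02, 5.30 and 9.17 CPM in control 1, 2 and 3 and at 7.6, 7.51 and 7.83 CPM in OE A, B and C. The *AP1AR-DT* OE mice were close to each other, between control 2 below and control 1 and 3 above. The Log2FC was -0.03 (SE 0.23, 95% confidence interval -0.57 to 0.50, edgeR adjusted P = 0.956).

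**Figure D2:**
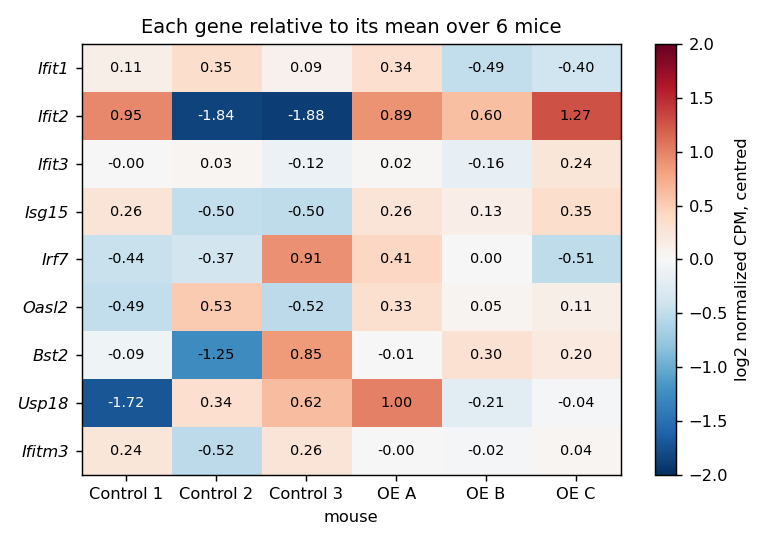
Log2 normalized CPM of each interferon-stimulated gene (rows) in each mouse (columns), as the difference from its own mean over the 6 mice; red is above and blue below that mean. *Ifit2* is at -1.84 and -1.88 in control 2 and 3 and *Usp18* at -1.72 in control 1, while *Ifit3* stays between -0.16 and 0.24.

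The 9 genes did not rise and fall together across mice. The highest value was in control 2 for 2 genes, in control 3 for 3, in OE A for 1 and in OE C for 3. The lowest was in control 1 for 1 gene, in control 2 for 2, in control 3 for 3, in OE B for 2 and in OE C for 1. Control 3 thus held both the highest and the lowest value of 3 genes each. The summed level of the 9 genes was 42.1, 34.2 and 39.3 CPM in control 1, 2 and 3 and 45.4, 39.3 and 47.4 CPM in OE A, B and C, and these sums overlapped between groups. Set on 1 scale as mean CPM per kilobase of the longest transcript, the levels ran from 0.37 for *Usp18*, 0.69 for *Irf7* and for *Ifit1*, 1.16 for *Oasl2*, 1.36 for *Ifit2*, 1.61 for *Isg15* and 3.30 for *Bst2* to 9.27 for *Ifit3* and 11.4 for *Ifitm3*. This order is of means over 6 libraries and does not hold in each, since *Ifit2* ran from 0.25 to 2.4 and *Usp18* from 0.056 to 0.68 CPM per kilobase. The 8 genes closest to the mean centred profile of the 9 were *Ppp1cc*, *Trim11*, *Cux2*, *Fam110d*, *Gmppb*, *Tceal6*, *Dcaf4* and *Ikzf1*. Their root mean square differences from it were 0.0286 to 0.0667 on the log2 scale over 6 mice, among 17779 candidates, and they were chosen for this likeness.

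**Figure D3:**
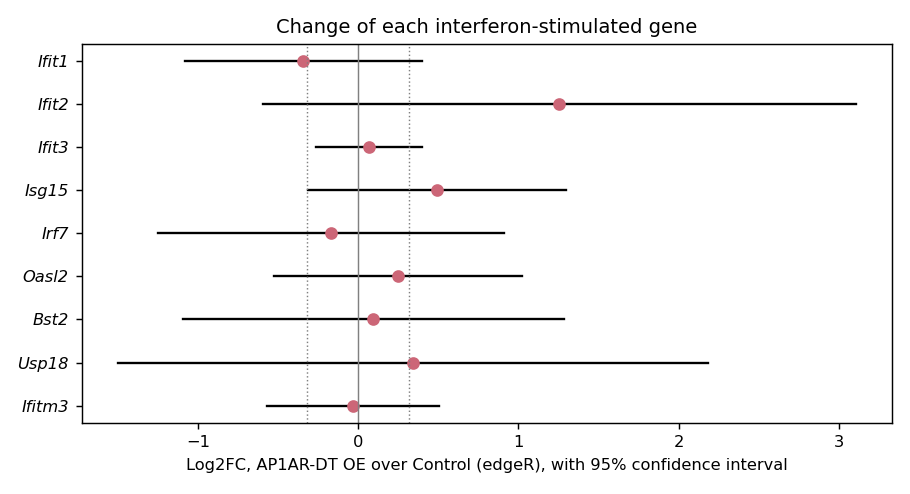
Log2FC of *AP1AR-DT* OE over control (horizontal axis, points) for each interferon-stimulated gene, with 95% confidence intervals from edgeR (lines, n = 3 mice per group). The dotted lines mark a |Log2FC| of 0.32; all 9 intervals include 0, from the narrow one of *Ifit3* (-0.26 to 0.40) to the wide one of *Ifit2* (-0.60 to 3.11).

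The intervals show how large a change could have gone unseen. For *Ifit3* they leave room for a Log2FC of at most 0.40 upward and -0.26 downward, and for *Ifitm3* of 0.50 and -0.57. For *Ifit2* and *Usp18* the upper ends of 3.11 and 2.19 include large increases. Exact permutation tests of each gene gave P between 0.2 and 1.0, where 3 mice against 3 cannot give less than 0.1.

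To place the 9 genes in their pathway, 170 other interferon genes were listed by role, and 137 passed the filter on low counts. Of these, 8 were called higher and 3 lower (8.03%, against 12.2% of all genes tested), 0 had an adjusted P under 0.05 in edgeR, and in 22 the groups did not overlap (16.1%, against 22.4%). Their median Log2FC was 0.03. The calls that follow rest on unadjusted P under 0.05, since none passed after adjustment over all genes in edgeR.

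Transcripts of the interferons themselves were at or near 0. Of 21 ligand genes, 17 had 0 counts in all libraries, among them *Ifnb1*, which encodes interferon beta, and the other 4 had at most 9 counts in any library. None could be tested. By the limit above, a count of 0 still allows up to 3 counts per library, so silence of these genes is not shown. Counts here are not whole read pairs, so the limit may be higher.

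Of the nucleic acid sensors and their adaptors, 1 of 17 tested was called. *Tlr3*, the endosomal receptor for double-stranded RNA, fell by 0.55 on the log2 scale (SE 0.16, edgeR adjusted P = 0.295). It was at 11.7, 14.7 and 16.1 CPM in control 1, 2 and 3 and at 8.98, 10 and 9.99 CPM in OE A, B and C, with no overlap. With GC content corrected for, its Log2FC was -0.27 and the gene was not called, while it was called in all 6 fits that left out a mouse. *Tlr9*, the receptor for unmethylated CpG DNA through which AAV genomes can be sensed, was at 2.14, 3.63 and 2.24 CPM in control and 2.24, 1.97 and 1.73 CPM in *AP1AR-DT* OE mice (Log2FC -0.43, edgeR adjusted P = 0.490). *Traf3*, an adaptor and the most abundant of this group, had a Log2FC of 0.11 (edgeR adjusted P = 0.759).

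None of the 13 receptor and JAK-STAT genes was called. The receptor subunits *Ifnar1* and *Ifnar2* had Log2FC values of 0.23 (edgeR adjusted P = 0.348) and 0.15 (adjusted P = 0.625). *Stat2* was at 11.7, 10.2 and 11.8 CPM in control and 17.0, 14.0 and 12.2 CPM in *AP1AR-DT* OE mice, without overlap, and missed the threshold (Log2FC 0.36, edgeR adjusted P = 0.348). *Irf9*, the DNA-binding part of ISGF3, had a Log2FC of 0.20 (adjusted P = 0.585), and the kinase *Jak1*, the most abundant, -0.09 (adjusted P = 0.630). Among the 8 interferon regulatory factors tested 0 were called, and the most abundant, *Irf2*, had a Log2FC of -0.08 (adjusted P = 0.748).

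Of 10 tested genes that restrain interferon signalling, 1 was called. *Pias4*, a SUMO ligase that restrains this pathway, rose by 0.44 on the log2 scale (SE 0.12, edgeR adjusted P = 0.295). It was at 21.1, 17.3 and 19.0 CPM in control and 26.2, 27.9 and 23.7 CPM in *AP1AR-DT* OE mice, without overlap, and its Log2FC under the GC correction was 0.18, short of the threshold. *Adar*, which edits double-stranded RNA so that it escapes sensing, was the most abundant (Log2FC 0.14, adjusted P = 0.631).

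Of the 5 genes for joining ISG15 to proteins, *Herc6*, the main mouse ligase, was called lower (Log2FC -0.78, SE 0.32, edgeR adjusted P = 0.324). It was at 2.43, 3.98 and 4.94 CPM in control and 2.32, 1.65 and 2.65 CPM in *AP1AR-DT* OE mice, and the groups overlapped. The call held in 7 of 15 fits and in 1 of 6 that left out a mouse. *Ube2l6*, the conjugating enzyme, was at 3.93, 0.863 and 0.901 CPM in control 1, 2 and 3 and 1.36, 6.05 and 4.27 CPM in OE A, B and C. Like *Ifit2*, it was low in control 2 and 3 and higher in control 1, but OE A was low too (Log2FC 1.04, edgeR adjusted P = 0.522). The activating enzyme *Uba7* had a Log2FC of -0.36 (adjusted P = 0.590) and the abundant *Arih1* -0.13 (adjusted P = 0.475).

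Among 12 tested relatives of the *Ifit*, *Ifitm* and *Oas* genes, *Oas2* alone was called. *Oas2* makes the messenger that activates RNase L, and it was scarce, at 0.393, 0.301 and 0.18 CPM in control and 0.698, 0.909 and 0.724 CPM in *AP1AR-DT* OE mice. The groups did not overlap, and the Log2FC was 1.41 (SE 0.48, edgeR adjusted P = 0.295). It was called in 3 of the 6 fits that left out a mouse. *Ifitm10*, the most abundant of these, had a Log2FC of 0.36 (adjusted P = 0.343).

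Of 50 other tested interferon-stimulated genes, 2 rose, 1 fell and 47 did not pass, with a median Log2FC of -0.003. *Ly6a*, a surface protein of brain endothelium, rose by 0.66 on the log2 scale (SE 0.17, edgeR adjusted P = 0.295), from 7.87, 8.27 and 11 CPM in control to 15.1, 15.0 and 12.8 CPM in *AP1AR-DT* OE mice. *Sp100*, a component of nuclear bodies, rose by 1.16 (SE 0.43, adjusted P = 0.305), with 0.688, 0.683 and 0.300 CPM in control and 1.17, 1.08 and 1.49 CPM in *AP1AR-DT* OE mice. *Rsad2*, or viperin, an enzyme that makes a chain-terminating nucleotide against viral polymerases, fell by 1.01 (SE 0.28, adjusted P = 0.295). Its levels were 1.67, 1.75 and 2.28 CPM in control and 1.02, 0.798 and 1.01 CPM in *AP1AR-DT* OE mice. In all 3 genes the groups did not overlap. The adjusted P of *Ly6a* was 0.0425 in DESeq2 and up to 0.661 over the other fits. *Ly6a* and *Rsad2* were called in all 15 fits run. *Sp100* was called in 12 of 15, but in only 3 of the 6 that left out a mouse. *Ly6e*, the most abundant, had a Log2FC of 0.16 (adjusted P = 0.511).

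Of 14 tested GTPases induced by interferon gamma, *Irgm1*, which acts on membranes around intracellular pathogens, was called and was also the most abundant. It rose by 0.34 on the log2 scale (SE 0.13, edgeR adjusted P = 0.309), from 7.99, 8.56 and 8.03 CPM in control to 11.1, 10.3 and 9.66 CPM in *AP1AR-DT* OE mice, and it was called in 2 of the 6 fits that left out a mouse, not in the one without control 1.

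In antigen presentation, 3 of 16 tested genes rose, 13 did not pass and 0 fell, where 5.10% of all genes tested were called higher and 7.15% lower. *H2-D1*, a class I heavy chain, rose by 0.46 on the log2 scale (SE 0.12, edgeR adjusted P = 0.295), from 41.9, 55.4 and 50.1 CPM in control to 65.1, 65.8 and 71.4 CPM in *AP1AR-DT* OE mice. The peptide transporter *Tap1* rose by 0.48 (SE 0.17, adjusted P = 0.296) and the class I-like *H2-T23* by 0.40 (SE 0.16, adjusted P = 0.318). *B2m*, the light chain that class I proteins share, was level, with a Log2FC of -0.01 (adjusted P = 0.967). The Log2FC was above 0 in 14 of the 16 genes, with a median of 0.26. In 6 of the 16 the groups did not overlap, against 22.4% of all genes tested. Class I heavy chain genes are similar in sequence, so reads may have been divided between them. Under the GC correction 0 of the 3 were called, with Log2FC values of 0.30, 0.32 and 0.26. Leaving out each mouse in turn, *H2-D1* was called in 6 of 6 fits, *Tap1* in 4 and *H2-T23* in 2.

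**Figure D4:**
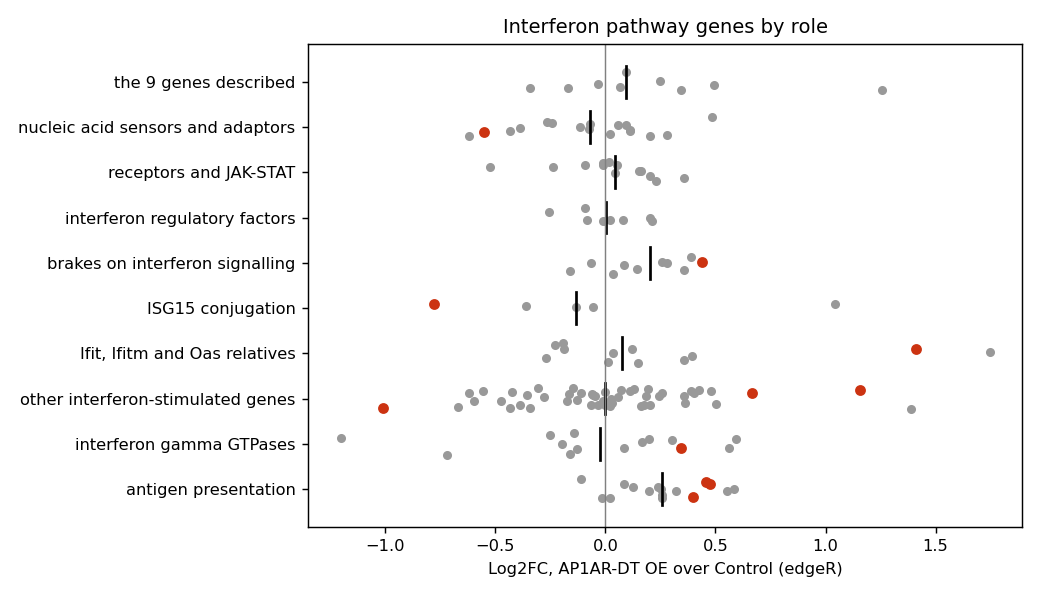
Log2FC of *AP1AR-DT* OE over control (horizontal axis) for the tested genes of each role in the interferon pathway (rows), with the 9 genes described in the top row. Red points are called genes, grey points are genes that did not pass, and black lines are medians; the 9 genes have a median of 0.10 and no red point, while antigen presentation has 3 red points and a median of 0.26.

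Cell types were checked by their markers, where 5.10% of all genes tested were called higher and 7.15% lower. The microglia list held genes on both sides of 0 (10 higher and 2 lower), as did the endothelial list (9 higher and 3 lower). Of 12 microglia markers, 5 rose (*C1qa*, *C1qb*, *C1qc*, *Trem2* and *Tmem119*) and 7 did not pass. In *C1qa*, *C1qb* and *Tmem119* the groups overlapped, and *C1qa* in OE C, at 53.0 CPM, lay within the control range of 39.5 to 60.8 CPM. Values of the markers under the GC correction are not given here. *Cx3cr1*, *Siglech* and *Sall1* were level, with Log2FC values of -0.001, 0.006 and 0.01, and *P2ry12* was at -0.25 without overlap between groups. The summed level of the microglia markers was 425.5 to 506.5 CPM in control and 460.0 to 618.6 CPM in *AP1AR-DT* OE mice. Of 12 endothelial markers, *Cldn5* and *Ly6c1* rose and 10 did not pass, among them *Ocln* at -0.21, *Kdr* at -0.07 and *Slco1a4* at -0.03 on the log2 scale. The endothelial sums were 169.8 to 223.3 CPM in control and 214.4 to 263.8 CPM in *AP1AR-DT* OE mice. The called markers of both lists moved in the direction of *Ly6a*, *H2-D1*, *Tap1*, *H2-T23* and *Irgm1*, and their part in those changes was not tested. Of 10 astrocyte markers, *Sox9* and *Aqp4* fell, and the Log2FC was below 0 in 9. Of 10 oligodendrocyte markers, *Ermn* and *Mobp* were among those that fell, and the Log2FC was below 0 in all 10. Their sums were 5437, 6957 and 11510 CPM in control 1, 2 and 3 and 5488, 5573 and 5588 CPM in OE A, B and C. Control 1 thus lay below all *AP1AR-DT* OE mice, and control 3 was the highest. Of 7 tested ependymal markers, *Hdc*, *Rsph1* and *Ccdc153* fell, and the Log2FC was below 0 in all 7. Of 8 tested choroid plexus markers, 5 were called lower and the Log2FC was below 0 in all 8, where control 3 was the library rich in them. In the 5 called genes the groups overlapped. *Ttr*, for example, was at 5.43, 3.7 and 3428 CPM in control 1, 2 and 3 and at 1.06, 4.77 and 2.57 CPM in OE A, B and C. Of 12 pericyte and meningeal fibroblast markers, *Vtn* rose and 11 did not pass. Of 12 neuron markers, *Rbfox3* rose and 11 did not pass. The part of these shifts in the results was not tested either. Of 12 T and NK cell markers, 6 (*Cd3d*, *Cd3g*, *Cd8b1*, *Nkg7*, *Gzmb* and *Klrk1*) were at 0 counts in all libraries, 0 were called, and the sums were 4.22 to 7.23 and 5.32 to 13 CPM. The most abundant of them was *Cd4*, at 3.74, 1.2 and 1.58 CPM in control 1, 2 and 3 and at 8.43, 2.71 and 2.74 CPM in OE A, B and C. Of 12 monocyte, neutrophil and B cell markers, 2 were at 0 in all libraries and 0 were called, with sums of 3.37 to 5.25 and 4.62 to 6.05 CPM.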

How the data were processed

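Per the labels, libraries were made from total RNA with an Illumina TruSeq kit. Per the paper, the authors ran FastQC, aligned the reads to GRCm38 with Bowtie2 and derived whole-number counts from StringTie coverage of GENCODE genes. The submitters' processing notes list other steps (mm9, TopHat2 2.0.4, HTSeq, edgeR 2.6.12), and this difference was not resolved. Bowtie2 does not split reads at introns, so junction reads may be lost and counts are not whole read pairs. The deposited table also holds the authors' mean normalized signal, log2 fold changes, Wald score and P-values, none of which was used. Coordinates are from GENCODE vM21 on GRCm38, since those in the table differed from it for most genes.

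Counts were fitted in R 4.3.3 with edgeR 4.0.16 (filterByExpr, TMM, quasi-likelihood test, no covariate) over 21844 genes, with Benjamini-Hochberg adjustment. Exact permutation tests used log2(normalized CPM + 0.1). The models were tested on simulated data. Alternatives were DESeq2 1.42.0, limma-voom (limma 3.58.1), DESeq2 size factors, no TMM factors, no filter, at least 10 counts in every mouse, corrections for GC content and length, and leaving out each mouse. Summing *Ifit3* and *Ifit3b* was chosen after seeing the data. The 9 genes and the gene lists were chosen with earlier results of these data known. Of each pathway list, its called genes (up to 4), the most abundant gene and 9 genes fixed by name are given, except that 1 of the latter is not reported here. Tables and figures were made with Python 3.11.15, pandas 2.3.3, scipy 1.17.1 and matplotlib 3.10.9.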

Additional observations from a re-analysis of the deposited data

How the results depend on the processing

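Of 125 values of the 9 genes under 14 alternatives, 111 kept their direction and their side of the call thresholds, 10 changed direction and 4 passed the thresholds. Summing *Ifit3* and *Ifit3b* changed neither for *Ifit3*. The cause was not tested. Under limma-voom 1 of the 9 genes was called, their median Log2FC was 0.32, and *Ifitm3* was at 0.021. Under the GC correction *Bst2* was at -0.053, 1565 genes were called (576 higher, 989 lower), and of the pathway genes 4 were called higher and 1 lower. DESeq2 gave 450 genes with an adjusted P under 0.05, against 6 in edgeR, and 0 of the 9 under either. Leaving out each mouse in turn, genes called numbered 1430 to 3508 (594 to 1623 higher, 836 to 1950 lower), with the lowest numbers without OE B and then OE A (1620). Genes with an adjusted P under 0.05 numbered 0 (without OE B) to 13 (without control 3), and 3 without control 2. Of the 9 genes, 0 to 2 were called (*Ifit2* and *Isg15* without control 1, *Oasl2* without control 2), with a median Log2FC of 0.076 to 0.36, the highest without control 3. Pathway genes called higher numbered 4 to 11 and lower 2 to 7, with 4 higher without OE B and 7 lower without control 1. Log2FC values that changed direction were those of *Usp18* without control 1 (-0.14) or OE A (-0.21), in a range of -0.21 to 0.84, *Ifitm3* without control 1 (0.081) or control 3 (0.11), in -0.24 to 0.11, *Bst2* without control 2 (-0.29), in -0.29 to 0.78, *Irf7* without control 3 (0.46) or OE C (0.058), in -0.43 to 0.46, and *Ifit3* without OE C (-0.028), in -0.028 to 0.16. No paired analysis was possible because the labels of the 2 groups share 1 mouse number only and the OE columns carry none of their mouse numbers. Depth limits *Usp18*, with 4 counts in control 1, and the interferon genes.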

Other observations

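The pattern of *Ifit2*, low in control 2 and 3 and higher in control 1 and all *AP1AR-DT* OE mice, was shared by genes outside the interferon pathway. The 8 genes nearest to it, chosen after its values were seen and for their likeness, were *Tuba4a*, *Kcna2*, *Col6a1*, *Drd3*, *Chmp3*, *Gm14455*, *Tcfl5* and *Chrm4*, with root mean square differences of 0.287 to 0.616 on the log2 scale over 6 mice. *Chmp3*, a subunit of the membrane-cutting ESCRT-III complex, was at 96.2, 7.11 and 7.03 CPM in control 1, 2 and 3 and at 89.6, 82.1 and 74.7 CPM in OE A, B and C. *Tuba4a*, an alpha-tubulin, was at 393, 55.1 and 54.1 CPM in control and at 355, 478 and 400.3 CPM in *AP1AR-DT* OE mice. Both are abundant genes, and control 2 and 3 lay several-fold below the other 4 mice in each.

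The pattern of *Usp18*, with control 1 below all other mice, was nearest to that of *Tnfrsf13b*, *Nyx*, *Tedc1*, *Ccdc25*, *Scamp2*, *2010007H06Rik*, *Pcdhgb1* and *Ndufb2*, also chosen after seeing the values. *Ndufb2*, a subunit of mitochondrial complex I, was at 2.61, 19.0 and 19.3 CPM in control 1, 2 and 3 and at 15.8, 13.9 and 14.3 CPM in OE A, B and C. *Scamp2*, a secretory carrier protein, was at 5.41, 23.3 and 22.9 CPM in control and at 25.7, 24.1 and 21.7 CPM in *AP1AR-DT* OE mice. In both genes control 1 was the lowest library by several-fold.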
